A study of Sus scrofa with 15 samples.

Results

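The mitochondrial ribosomal protein genes examined here are the 75 genes whose symbols begin with MRPL or MRPS followed by a number, among 43294 features with a value in each of 15 pig libraries. Of the 43294 features, 28224 are known genes and 15070 are transcripts that the authors assembled from the reads. The 75 genes were chosen by name and not by their values. They comprise 49 genes for proteins of the large subunit of the mitochondrial ribosome, 25 for proteins of the small subunit and MRPS36, which carries the family name but is now known as a component of the 2-oxoglutarate dehydrogenase complex. MRPS18A and MRPS30 are counted with the large subunit, where their proteins reside in mammals.

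The study sequenced RNA from pig somatic cell nuclear transfer (SCNT) embryos, made by moving the nucleus of a cultured cell into an enucleated oocyte, and from the primary fetal fibroblasts (PFF, passages 2 to 5) that served as donor cells. It asked how the transferred genome is activated and whether changing its chromatin alters that activation. There were 3 libraries in each of 5 groups, and each embryo library came from a pool of 30 embryos. SCNT4c and SCNT8c were untreated embryos at the 4-cell and 8-cell stages. SCNT4c-KG embryos were 4-cell embryos injected with mRNA for KDM4A, an H3K9 demethylase, and cultured with GSK126, which blocks EZH2, the H3K27 methyltransferase. In the staining experiments of the study GSK126 was present at 0.1 µM for 48 h and the injection, 5 h after activation, used 1000 ng/µl of mRNA, and the doses of the sequenced pools are not stated apart from these. No sequenced group had the mRNA or GSK126 alone, so injection, mRNA and drug cannot be told apart in the SCNT4c-KG comparison. SCNT4c-TDG embryos were 4-cell embryos from a puromycin-selected donor line carrying a doxycycline-inducible gene for thymine DNA glycosylase (TDG), an enzyme of DNA demethylation, with doxycycline at 500 ng/ml from 40 to 72 h. The labels name neither that donor line nor doxycycline for SCNT4c, so the enzyme, the drug and the line cannot be told apart in the TDG comparison. The sources name no genotype, sex or batch, and nothing beyond the separate pools or wells says how independent the libraries of a group are, so p-values measure the spread between these libraries.

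Mitochondria translate a small set of membrane proteins of the respiratory chain from their own DNA, on ribosomes of their own. All proteins of these ribosomes are encoded in the nucleus, made in the cytosol and imported, and each subunit combines homologs of bacterial ribosomal proteins with proteins found only in mitochondria. The oocyte hands the embryo a large stock of mitochondria and of maternal mRNA, and transcription from the embryo's own genome begins after the first cleavages.

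The deposited values are the reads of each feature after division by a library-specific factor, called normalized read counts below. Reads recovered from them numbered 12354649 to 22868038 per library, fewest in SCNT4c-KG (12354649 to 15390472), and 1 read was worth 0.765 to 1.63 units. The labels held for the treated genes: KDM4A had 134, 136 and 313 units in SCNT4c and 1429 to 1476 in SCNT4c-KG, and TDG had 939 to 2541 in SCNT4c and 49857 to 59944 in SCNT4c-TDG. KDM4A was also higher in SCNT4c-TDG (555 to 918) and TDG also in SCNT4c-KG (3886 to 4738). The summed level of the fibroblast markers was 3855400 to 4085300 in PFF and 1619.8 to 5459.6 in the embryo libraries, and that of the oocyte and early embryo markers 11.5 to 21.5 in PFF and 8033.7 to 43496 in the embryos, with GDF9 and BMP15 listed at 0 throughout. Pearson r between log2 values of replicates, across features, was 0.986 in PFF and 0.868 to 0.945 in the 4-cell groups, and library 3 of SCNT8c stood apart, with r of 0.765 and 0.823 to the other two.

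Most of these genes were detected in every group, and their levels differed strongly between groups. The libraries held 58 to 63 of the 75 genes at 10 or more units. The median over the 75 genes was 199 to 284 units in SCNT4c, 330 to 632 in SCNT8c, 588 to 668 in PFF, 744 to 905 in SCNT4c-TDG and 1059 to 1292 in SCNT4c-KG, so that neither treated group overlapped SCNT4c. The summed level was 74594 ± 6039 (SD, n = 3) in SCNT4c, 172610 ± 22755 in SCNT4c-KG, 107480 ± 6318 in SCNT4c-TDG, 107170 ± 21663 in SCNT8c and 52701 ± 599 in PFF. As a share of each library's total it was 0.188 to 0.191% in PFF, 0.384 to 0.456% in SCNT4c, 0.436 to 0.773% in SCNT8c, 0.673 to 0.752% in SCNT4c-TDG and 0.838 to 1.005% in SCNT4c-KG. In such bulk pools, fewer cells of a kind and less RNA per cell cannot be told apart.

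**Figure D1:**
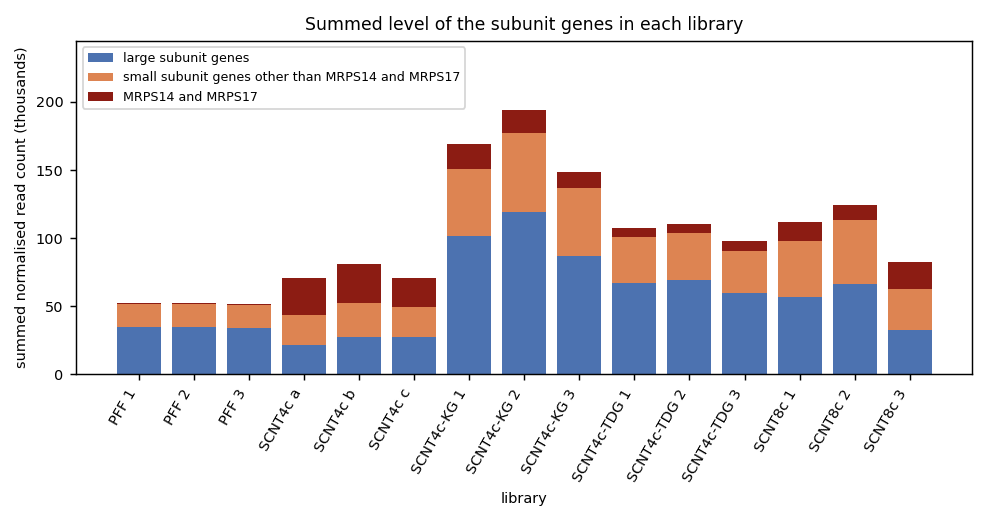
Summed normalized read count (y axis, divided by 1000) of the large subunit genes, the small subunit genes other than MRPS14 and MRPS17, and MRPS14 with MRPS17, stacked for each of the 15 libraries (x axis). MRPS14 and MRPS17 hold 48.5 to 55.0% of the small subunit sum in the 3 SCNT4c libraries and 3.8 to 4.1% of it in PFF.

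The subunits did not share one pattern. The large subunit sum was 25435 ± 3249 in SCNT4c and 102630 ± 16387 in SCNT4c-KG, whereas the small subunit sum was 48501 ± 4944 and 67998 ± 6449. The ratio of large to small subunit sums was therefore 0.446 to 0.622 in SCNT4c, against 1.40 to 1.60 in SCNT4c-KG, 1.56 to 1.69 in SCNT4c-TDG and 1.89 to 1.94 in PFF. In SCNT8c the ratio was 1.04 and 1.14 in libraries 1 and 2 but 0.658 in library 3. MRPS14 and MRPS17, both homologs of bacterial small subunit proteins, made up 48.5% to 55.0% of the small subunit sum in SCNT4c. With both left out the ratio was 0.991 to 1.21 in SCNT4c, 1.72 to 2.07 in SCNT4c-KG, 1.96 to 2.02 in SCNT4c-TDG, 1.97 to 2.02 in PFF and 1.09 to 1.40 in SCNT8c, so that SCNT4c stayed below the treated groups and PFF.

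Of the 64 genes with a mean of 10 or more in at least 1 group, 29 had their highest group mean in SCNT4c-KG, 12 in SCNT8c, 11 in PFF, 9 in SCNT4c-TDG and 3 in SCNT4c. The 3 were MRPS14, MRPS16 and MRPS17, all of the small subunit. The lowest group mean fell in SCNT4c for 25 genes and in PFF for another 25. The 5 genes with the highest mean over the 15 libraries were MRPS17, MRPS31, MRPS14, MRPS10 and MRPL20. Per kilobase of exon, the leading gene was MRPS18B in PFF (1990 units per kb), MRPS17 in SCNT4c (13346), MRPL20 in SCNT4c-KG (23145), MRPL42 in SCNT4c-TDG (11881) and MRPL46 in SCNT8c (8818), a different gene in every group.

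**Figure D2:**
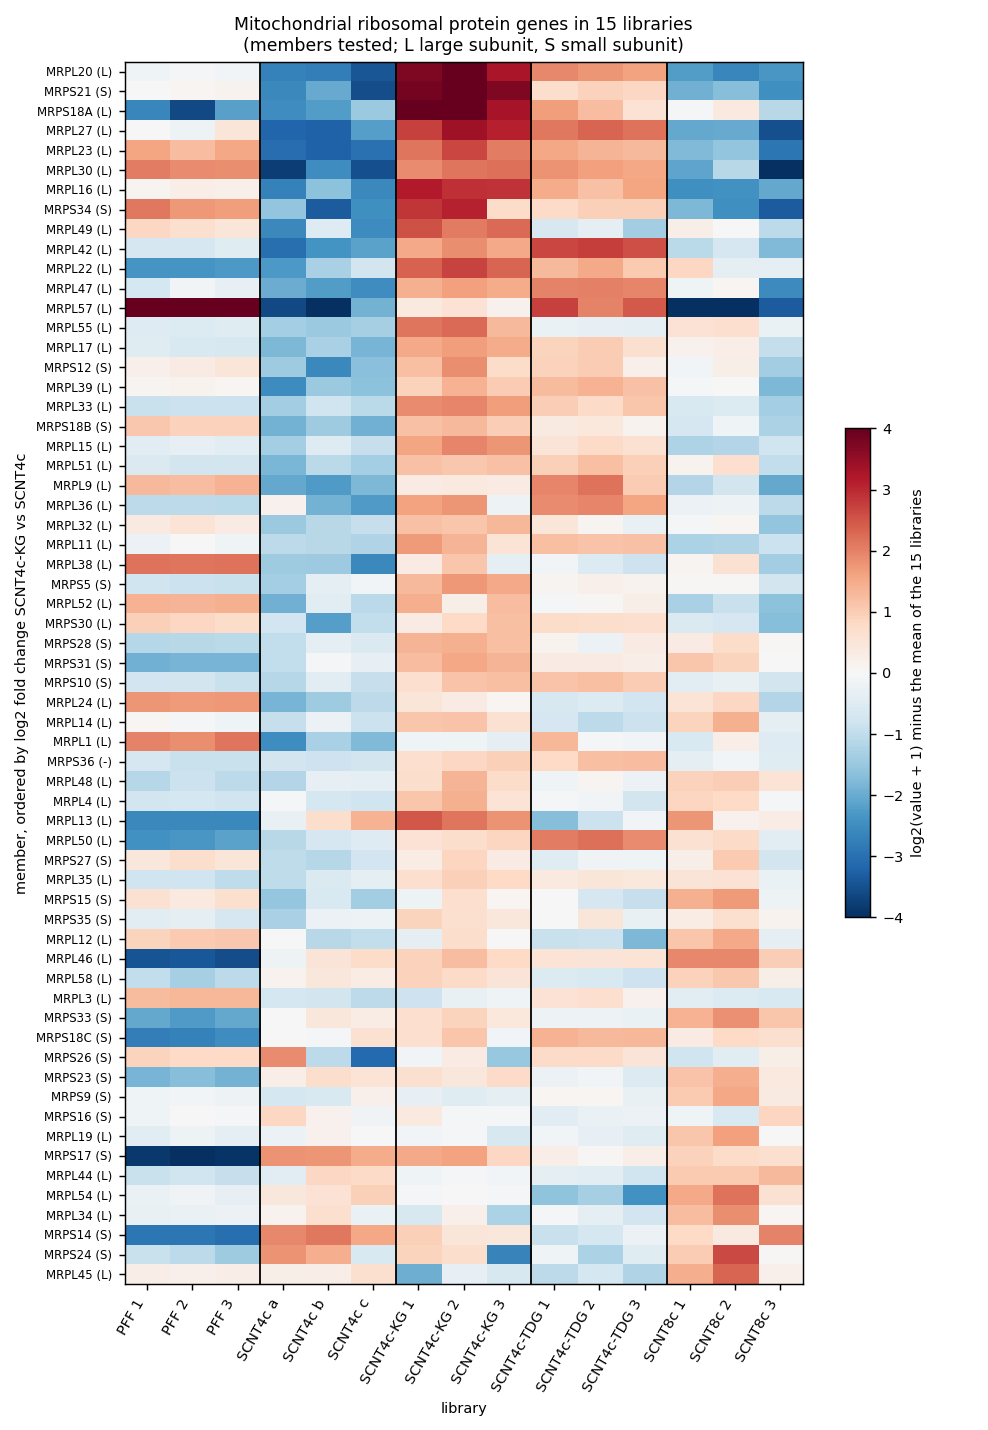
Each tested gene of the family (rows, ordered by its fold change in SCNT4c-KG, L for large and S for small subunit) in each of the 15 libraries (columns), as log2(value + 1) minus the gene's mean over the libraries. Most rows are low in the 3 SCNT4c libraries and high in the SCNT4c-KG libraries, and MRPS14 and MRPS17 have their highest group mean in SCNT4c.

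The promoters of 3 genes are printed because these genes mark both ends of the response described below. MRPL27 is among the 5 largest rises of each treated group, and MRPS14 and MRPL45 are among the few genes called lower in each. Each line is the 250 bases upstream of the annotated start on the minus strand of Sscrofa11.1 (RefSeq genome and annotation), written 5′ to 3′ along the gene. Capitals mark matches to GGGCGG (Sp1), CCGGAAG (ETS), CACGTG (E-box) or CCAAT (NF-Y), on either strand, so that CCGCCC is a match to Sp1 on the opposite strand.
MRPL27, upstream of its first exon at chr12:26670168-26670417: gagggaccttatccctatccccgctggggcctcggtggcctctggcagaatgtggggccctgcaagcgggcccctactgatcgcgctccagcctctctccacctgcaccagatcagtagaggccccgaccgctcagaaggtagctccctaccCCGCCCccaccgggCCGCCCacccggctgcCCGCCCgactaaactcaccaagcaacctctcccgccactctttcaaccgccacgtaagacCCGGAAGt
MRPS14, at chr9:117137189-117137438: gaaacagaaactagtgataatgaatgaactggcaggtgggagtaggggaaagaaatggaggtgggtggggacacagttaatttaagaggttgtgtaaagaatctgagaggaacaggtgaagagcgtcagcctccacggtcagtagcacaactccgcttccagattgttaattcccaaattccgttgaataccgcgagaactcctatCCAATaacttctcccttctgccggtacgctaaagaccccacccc
MRPL45, at chr12:23766477-23766726: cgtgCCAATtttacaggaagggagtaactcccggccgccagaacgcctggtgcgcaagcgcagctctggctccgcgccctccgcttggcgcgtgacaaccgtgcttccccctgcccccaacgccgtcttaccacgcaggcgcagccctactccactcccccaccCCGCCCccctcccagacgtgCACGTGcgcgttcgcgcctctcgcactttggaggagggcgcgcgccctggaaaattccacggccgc
The MRPL27 window holds 3 Sp1 matches and 1 ETS match, with 17 CpG and 66.8% G and C. EME1, on the other strand, starts 41 bp away and shares 4.9% of MRPL27's exon bases, so this window lies downstream of the EME1 start. The MRPS14 window holds 1 NF-Y match, 8 CpG and 48% G and C, the lowest of the 3, and the MRPL45 window holds 1 match each to Sp1, the E-box and NF-Y, with 29 CpG and 69.2% G and C, the highest of the 3.

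Over 74 promoters of the family, read as 250 bases before to 50 after the start, the ETS letters CCGGAAG stood in 20 (27.0%), against 11% of 19556 promoters of the annotation. The YY1 letters AAGATGG stood in 11 (14.9%, against 5.27%), the E-box CACGTG in 9 (12.2%, against 7.92%), the Sp1 letters GGGCGG in 43 (58.1%, against 50.6%), the NRF1 core CGCATGCG in 4 (5.41%, against 2.07%) and CCAAT in 23 (31.1%, against 35.4%). Median CpG counts were 20.5 in these promoters and 16 in all promoters. These are descriptions of letters, with no test, and a match is not a bound site.

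In SCNT4c-KG, the comparison that asks what KDM4A mRNA with GSK126 does to untreated 4-cell embryos, most mitochondrial ribosomal protein genes were higher than in SCNT4c. A change was called when limma's Benjamini-Hochberg adjusted p over all features was under 0.05 and the fold change above 2, for genes whose mean across the 12 embryo libraries was at least 10, which 62 of the 75 genes reached. Of the 62, 43 were higher (69.4%) and 2 lower, where 17.6% of all 18942 tested features were higher and 19.6% lower. The median log2 fold change was 1.83, against -0.30 over all features. The genes described below for each comparison are up to 5 of the largest rises and falls among called genes whose groups do not overlap and whose mean is at least 100 units in the higher group. For genes named by this rule, groups that do not overlap are a condition of the choice and lend no further support. In the large subunit 31 of 41 tested genes rose and 1 fell, with a median of 2.31. In the small subunit 11 of 20 rose and 1 fell, with a median of 1.30.

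The largest rise was that of MRPL20, the homolog of bacterial L20, which binds ribosomal RNA early in assembly of the large subunit. It had 199, 191 and 120.4 units in SCNT4c and 17408, 23110.2 and 12459.6 in SCNT4c-KG. Its rise came to 6.68 ± 0.31 on the log2 scale (SE; adjusted p = 4.07e-09). Each treated library was far above each untreated one, and in SCNT8c MRPL20 stayed at 214 to 278 units. MRPS21, a small subunit homolog of bacterial S21, had 30.0, 44.6 and 14.9 units in SCNT4c and 2630.0, 2938 and 2438 in SCNT4c-KG, a log2 fold change of 6.56 ± 0.44 (adjusted p = 5.71e-08). Its groups were as far apart.

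MRPL27, homolog of a bacterial protein that reaches the peptidyl transferase center, rose from 16.6, 15.7 and 33.2 units to 1042, 1657 and 1345. Its log2 fold change was 5.94 ± 0.50 (adjusted p = 4.68e-07). MRPL23, whose bacterial homolog lines the exit of the peptide tunnel, rose from 37.9, 33.2 and 39.9 to 1399.9, 2051 and 1318 units, by 5.36 ± 0.41 (adjusted p = 1.96e-07). Neither gene's groups overlapped, and both had been above their SCNT4c level in PFF, with 135 to 220.5 units of MRPL27 and 751 to 964 of MRPL23.

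MRPS18A belongs to the bS18 family, in which mammals have 3 proteins for 1 bacterial one. It had 9.46, 11.4 and 19.9 units in SCNT4c and 1119, 1190.3 and 573 in SCNT4c-KG, a log2 fold change of 6.04 ± 0.57 (adjusted p = 1.53e-06). The low level in SCNT4c was shared by PFF, at 3.82 to 11.9 units. MRPS18B, a small subunit protein of the same family, went from 212, 295 and 208 to 1774, 1949 and 1552 units (log2 fold change 2.89 ± 0.33, adjusted p = 1.26e-05). MRPS18C, the third of the family, had 71, 69.9 and 109.6 units in untreated embryos and 114, 157 and 67 after treatment, and with overlapping groups it was not called, at a log2 fold change of 0.38 ± 0.47 (adjusted p = 0.543). Exons of MRPS18C share 75.8% of their bases with genes on the other strand, and the library kit does not mark strand.

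Beside MRPL20, the genes of highest mean level included MRPS31 and MRPS10. MRPS31, a mitochondria-specific protein of the small subunit head, had 2612, 4939 and 4082 units in SCNT4c and 12037, 15192 and 13195 in SCNT4c-KG. MRPS10, homolog of bacterial S10, had 1938, 3154 and 2226 units in SCNT4c and 6684, 9351 and 9701 in SCNT4c-KG. Their log2 fold changes were 1.84 ± 0.31 and 1.83 ± 0.26 (adjusted p = 0.000351 and 9.96e-05), and neither gene's groups overlapped.

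MRPS14 and MRPL45 were the members called lower. MRPS14 had 13129, 14800.3 and 9965 units in SCNT4c and 6678, 4798 and 4655 in SCNT4c-KG, a log2 fold change of -1.23 ± 0.36 (adjusted p = 0.0147). MRPL45, a mitochondria-specific protein that tethers the ribosome to the inner membrane, had 1101, 1133 and 1445 units in SCNT4c and 238, 742 and 596 in SCNT4c-KG, a log2 fold change of -1.36 ± 0.49 (adjusted p = 0.0408). Both calls were fragile. That of MRPL45 was lost in 5 of 6 fits with 1 library left out (adjusted p = 0.0551 to 0.186). That of MRPS14 was lost without library b of SCNT4c or library 2 or 3 of SCNT4c-KG (adjusted p = 0.0527 to 0.0604). MRPS17, the leading gene of SCNT4c, had 13663, 13549.8 and 11104 units there and 11361, 12164 and 7005 in SCNT4c-KG, and was not called (log2 fold change -0.36 ± 0.25, adjusted p = 0.27). Of the 45 calls, 40 held with each library left out in turn.

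**Figure D3:**
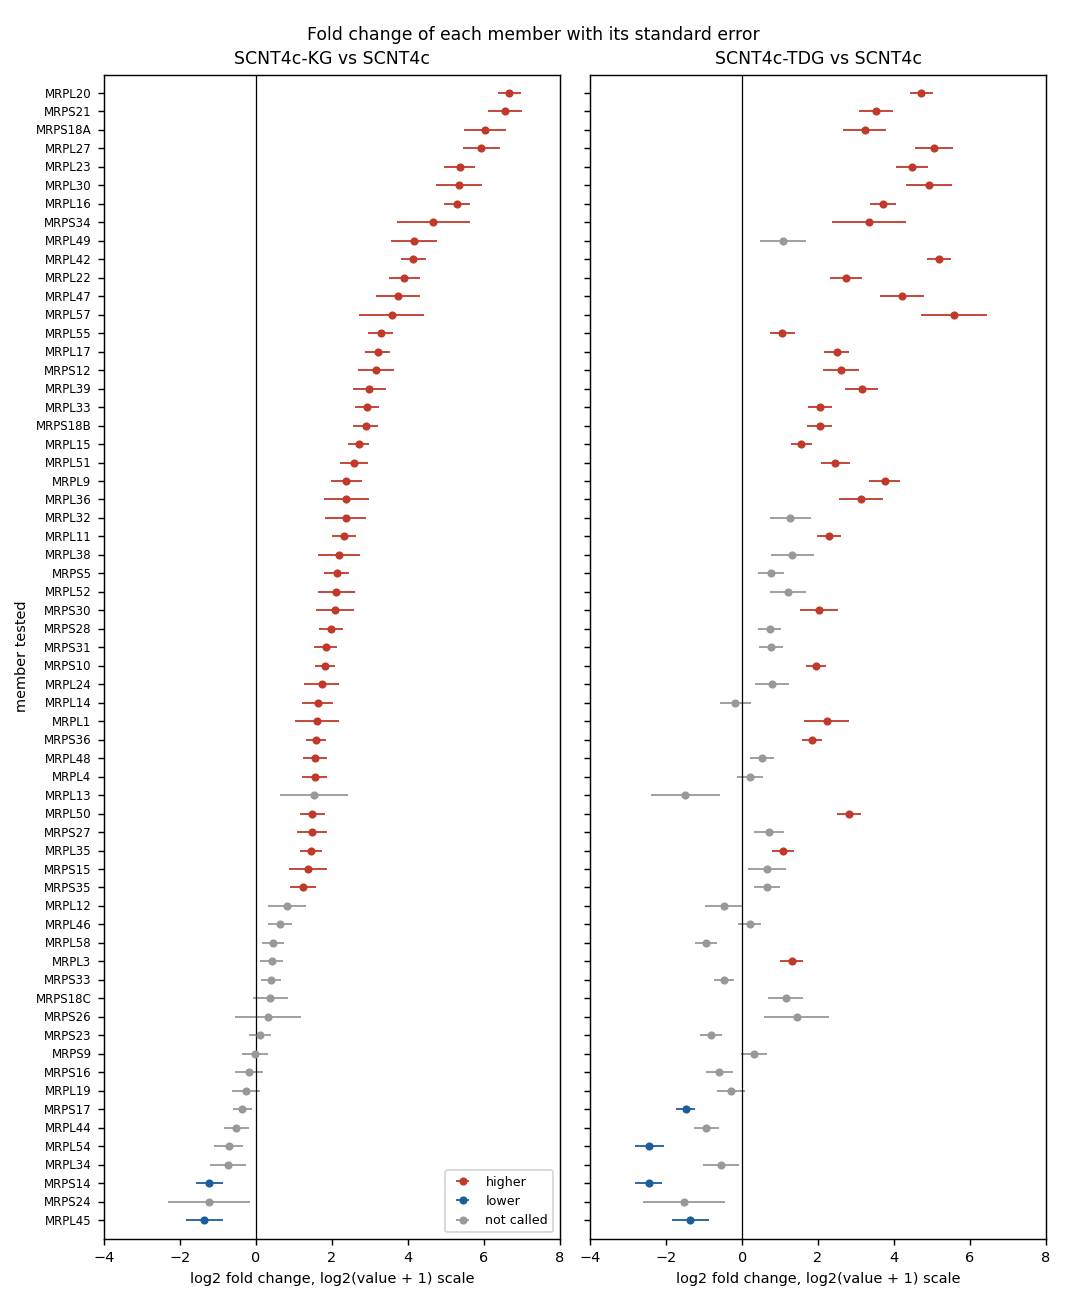
Log2 fold change of each tested gene (y axis) with its standard error, on the log2(value + 1) scale (x axis), in SCNT4c-KG and in SCNT4c-TDG against the same 3 SCNT4c libraries, colored by call. SCNT4c-KG has 43 genes called higher and 2 lower, and SCNT4c-TDG 30 higher and 4 lower.

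With TDG induced, a comparison that asks what this demethylation enzyme does in the embryos, more genes of the family were higher than lower. The control libraries were the same 3 as above. Of 62 tested genes, 30 were higher than in SCNT4c (48.4%) and 4 lower, where 15.7% of all features were higher and 17.6% lower. The median log2 fold change was 1.24, against -0.26 over all features, a background that moved to 0.00 with every library set to the same total and to -0.04 after quantile normalization, where 36 and 34 genes were higher. The features higher over the whole table rose too, from 2969 to 3473 and 3622 under these 2 scalings. In the large subunit 24 of 41 genes rose and 2 fell, and in the small subunit 5 of 20 rose and 2 fell. With the same total in each library 27 rose and 1 fell in the large subunit, and 8 rose and 2 fell in the small subunit. With DESeq2 these were 27 and 1, and 7 and 2.

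At the pseudocount of 1 used here, the largest fold change was that of MRPL57, a small mitochondria-specific protein of the large subunit, with 1.58, 0.874 and 7.47 units in SCNT4c and 207, 123 and 171 in SCNT4c-TDG. The SCNT4c values stand for 2, 1 and 9 reads, so the log2 fold change of 5.57 ± 0.86 (adjusted p = 0.000195) depended on the pseudocount and was 3.74 with a pseudocount of 10. In SCNT4c-KG the gene had 34.2 to 45.7 units, in SCNT8c 0, 0 and 2.11, and in PFF 821 to 1018. Its groups are thus ordered from SCNT8c and SCNT4c, which overlap, through SCNT4c-KG and SCNT4c-TDG to PFF, and the difference between SCNT4c-KG and SCNT4c-TDG was not called (adjusted p = 0.13). Antisense exons of SKA3 share 32.8% of its exon bases.

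MRPL42, a mitochondria-specific large subunit protein, became the gene of highest level per kilobase in these embryos. It had 185, 288 and 339.6 units in SCNT4c and 9577, 10245 and 9013 with TDG, which is a log2 fold change of 5.19 ± 0.33 (adjusted p = 7.76e-08). In SCNT4c-KG it lay between these, at 4340.2, 5481 and 4278 units. These 3 groups did not overlap.

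MRPL27 reached 675, 788 and 699 units in SCNT4c-TDG (log2 fold change 5.06 ± 0.50, adjusted p = 3.52e-06). MRPL30, homolog of bacterial L30, had 18.9, 47.2 and 22.4 units in SCNT4c and 929.9, 842 and 789.6 in SCNT4c-TDG (4.92 ± 0.61, adjusted p = 2.99e-05). MRPL20 reached 4935, 4395 and 3962 units (4.72 ± 0.31, adjusted p = 1.37e-07). Each of these genes was clear of its SCNT4c values in every SCNT4c-TDG library. MRPL3, homolog of bacterial L3 at the core of the large subunit and singled out after its values were seen, was called higher here with 1289, 1352 and 957 units against 525, 510.3 and 412 (1.31 ± 0.31, adjusted p = 0.00445), with 485, 699 and 764 units in SCNT4c-KG. The difference between the treatments in MRPL3 was not called (0.89 ± 0.31, adjusted p = 0.0596).

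The falls with TDG included the leading genes of SCNT4c. MRPS14 dropped to 1866, 2128 and 2915 units (log2 fold change -2.46 ± 0.36, adjusted p = 0.000119) and MRPS17 to 4811, 4095 and 4746 (-1.49 ± 0.25, adjusted p = 0.000406). Both lay well below all 3 SCNT4c libraries and stayed above their PFF levels of 423 to 462 and 238 to 270.0 units. MRPL54, a mitochondria-specific large subunit protein, had 1801, 1943 and 2495 units in SCNT4c and 426, 513 and 244 in SCNT4c-TDG (-2.45 ± 0.38, adjusted p = 0.00021). MRPL45 had 456, 569 and 403 units (-1.37 ± 0.49, adjusted p = 0.0438), a call that was lost whichever of the 6 compared libraries was left out (adjusted p = 0.0719 to 0.121).

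**Figure D4:**
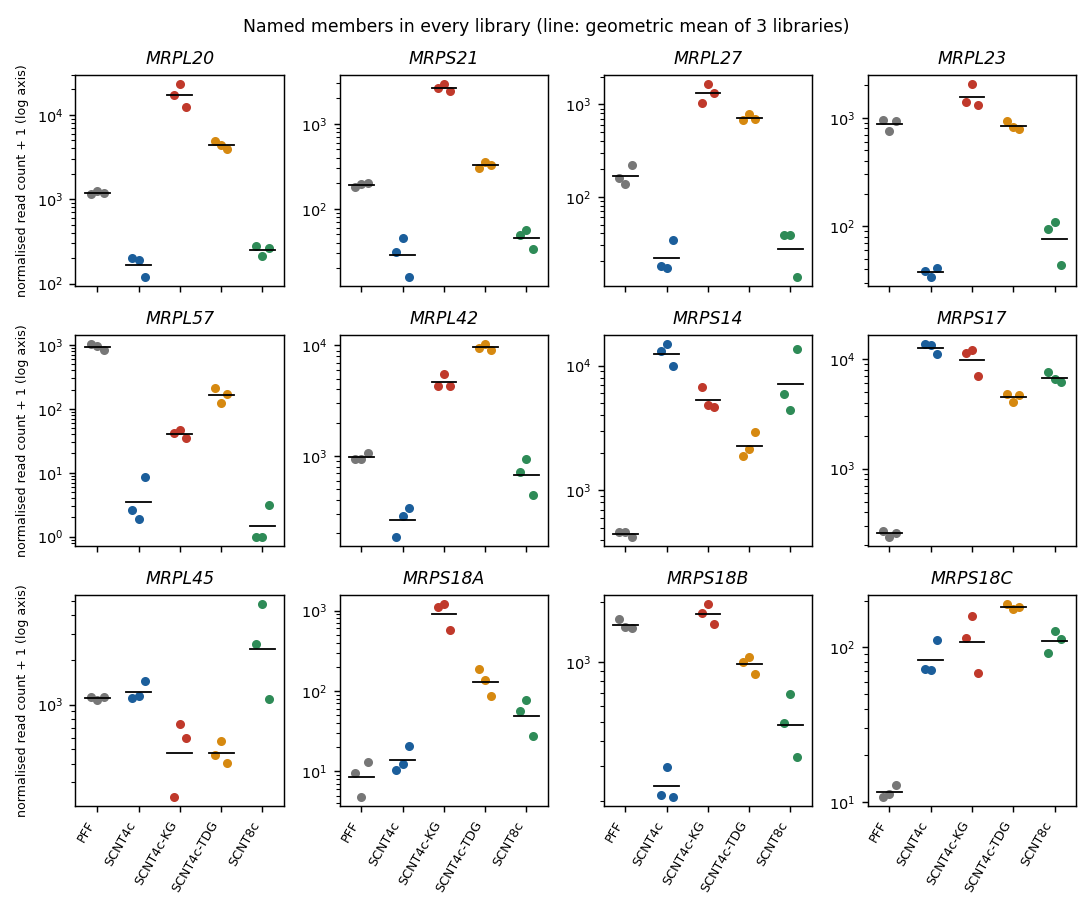
Normalized read count plus 1 (log axis) of named genes of the family in every library of the 5 groups, with a line at the geometric mean of 3 libraries. MRPL20 runs from 120.4 to 199 units in SCNT4c to 12459.6 to 23110.2 in SCNT4c-KG, and MRPS14 and MRPS17 are lowest in PFF.

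Comparing the treatments with each other, 3 of the 62 genes were higher in SCNT4c-TDG and 18 lower, where 7.07% of all features were higher and 9.13% lower. The median log2 fold change was -0.80, against -0.02 over all features. These counts depended on scaling: with every library set to the same total, which moved the median of all features to 0.33, 4 genes were higher and 9 lower with a median of -0.44, and of the 18942 features 2018 were higher and 1142 lower, against 1340 and 1730 as first scaled. The large subunit had 3 higher and 12 lower of 41, and the small subunit 0 higher and 6 lower of 20. With the same total in each library these counts were 4 and 8 in the large subunit and 0 and 1 in the small subunit. Over the whole family, leaving 1 library out gave 0 to 2 higher and 10 to 15 lower. The fewest lower came without library 2 of SCNT4c-KG, where 1096 of all features were lower.

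The largest difference was in MRPL49, a mitochondria-specific large subunit protein, at 749.8, 543 and 623 units in SCNT4c-KG and 82, 99.7 and 49 in SCNT4c-TDG (log2 fold change -3.08 ± 0.60, adjusted p = 0.00294). Its exons share 27.7% of their bases with FAU and SYVN1 on the other strand, and FAU encodes a cytosolic ribosomal protein, so its reads cannot be assigned with certainty. MRPS21 stood at 298, 352 and 324 units in SCNT4c-TDG, far under the SCNT4c-KG values (-3.03 ± 0.44, adjusted p = 0.000431). MRPS18A stood at 184, 137 and 85.7 units (-2.81 ± 0.57, adjusted p = 0.00356), again with no overlap.

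MRPL55, a large subunit protein, had 6565, 7197 and 3656 units in SCNT4c-KG and 1241, 1197 and 1137 in SCNT4c-TDG (-2.22 ± 0.33, adjusted p = 0.000431). MRPL20, although raised in both groups, was lower in SCNT4c-TDG (-1.96 ± 0.31, adjusted p = 0.000791). The other genes called lower were MRPL13, MRPL14, MRPL54, MRPL16, MRPL58, MRPS5, MRPL4, MRPS28, MRPS14, MRPL15, MRPS17, MRPS31 and MRPL48, with log2 fold changes from -3.03 to -1.03. MRPS14 and MRPS17 are on this list although SCNT4c-KG was itself at or under SCNT4c for both, so their group means descended from SCNT4c through SCNT4c-KG to SCNT4c-TDG.

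The 3 genes higher with TDG were all of the large subunit. MRPL9, homolog of bacterial L9, had 2032, 2337 and 1053 units in SCNT4c-TDG and 649, 680.2 and 659.7 in SCNT4c-KG (1.37 ± 0.41, adjusted p = 0.0326). MRPL50, a mitochondria-specific protein, had 4244, 4794 and 3820.4 against 1532, 1692 and 1875 (1.33 ± 0.33, adjusted p = 0.0115). MRPL42 was higher by 1.04 ± 0.33 (adjusted p = 0.04). Not all of these calls were firm, as MRPL42 was lost with any 1 library left out, MRPL9 in 5 of 6 such fits and MRPL50 without library 2 of SCNT4c-TDG (adjusted p = 0.0594), and of all 21 calls 9 held throughout.

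**Figure D5:**
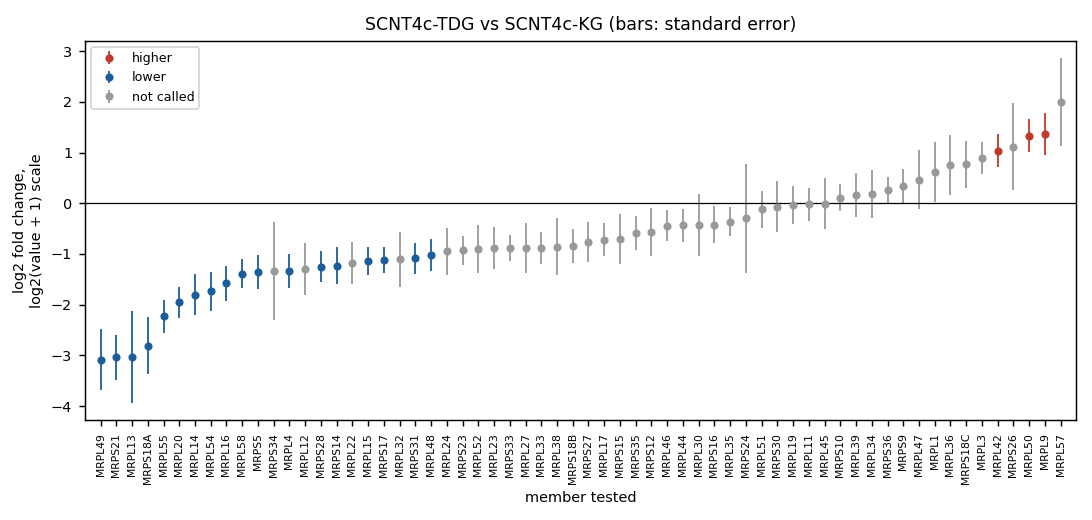
Log2 fold change of SCNT4c-TDG against SCNT4c-KG (y axis, log2(value + 1) scale) with its standard error for each tested gene (x axis), colored by call. Of 62 genes 3 were called higher and 18 lower on the deposited scale, and 4 and 9 when libraries were set to the same total.

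From the 4-cell to the 8-cell stage of untreated embryos, 11 of the 62 genes were called higher and 0 lower, where 2.62% of all features were higher and 3.16% lower. The median log2 fold change was 0.90, against -0.31 over all features. Large subunit genes gave 7 of the calls and small subunit genes 4. The count rested on single libraries: it was 0 without library b of SCNT4c or library 1 or 2 of SCNT8c, 1 and 2 without library a and c of SCNT4c, and 35 without library 3 of SCNT8c, the library that stood apart, and it was 14 with edgeR and 32 with DESeq2. The features higher over the whole table moved too, from 497 to 2363 without library 3 of SCNT8c and 1962 with DESeq2, and down to 16 without library b of SCNT4c, 7 and 13 without library 1 or 2 of SCNT8c, and 112 and 155 without library a or c of SCNT4c. In a limma fit of SCNT8c and SCNT4c alone, 0 genes of the family and 0 features of the whole table were called.

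MRPS15, homolog of a bacterial protein that binds ribosomal RNA of the small subunit, had the largest rise among the calls. It had 148, 284 and 166 units in SCNT4c and 1175, 1425 and 374 in SCNT8c (log2 fold change 2.16 ± 0.50, adjusted p = 0.0288). Library 3 was the lowest of SCNT8c here, as it was for the next 4 genes. MRPL55 had 2217, 2397 and 1246 units against 584, 532 and 601 (1.71 ± 0.33, adjusted p = 0.0189). MRPL22, whose bacterial homolog lines the peptide tunnel, had 1103, 490.5 and 481 units against 126, 253 and 371 (1.48 ± 0.41, adjusted p = 0.0485).

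MRPL17, homolog of bacterial L17, had 2661, 2816 and 1216 units in SCNT8c against 674, 960.4 and 650.1 (1.48 ± 0.32, adjusted p = 0.025). MRPL48, a mitochondria-specific protein of the central protuberance, had 1996, 2087 and 1559 against 469, 842 and 826 (1.44 ± 0.32, adjusted p = 0.0255). No values overlapped in these genes. The other 6 calls were MRPL51, MRPS9, MRPL42, MRPL46, MRPS33 and MRPS31, with log2 fold changes from 1.12 to 1.37. MRPL46, of the central protuberance, had the highest level per kilobase of the 8-cell embryos, with 10652, 10560.0 and 5508 units against 2452, 4016 and 4639 in SCNT4c. MRPL20 and MRPL27, among the 5 largest rises of each treated group, had log2 fold changes of 0.58 and 0.33 at this stage (adjusted p = 0.226 and 0.683).

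Against the donor fibroblasts, SCNT4c embryos had 11 genes higher and 26 lower of 61 tested, where 39.7% of all features were higher and 38.5% lower, as against 18.0% and 42.6% of the 61 genes. The median log2 fold change was -0.63, against 0.07 over all features and -1.12 over known genes, and this sign depended on scaling, the median of the genes being -0.01 with the same total in each library, 0.32 after quantile normalization, 0.28 with edgeR and 0.32 with DESeq2. The median of all features was 0.67, 0.08, 0.96 and 1.01 under these settings, and the counts were 18 higher and 23 lower, 21 and 21, 21 and 20, and 21 and 21. The subunits differed in their counts, with 4 higher and 20 lower of 40 in the large subunit and 7 higher and 6 lower of 20 in the small subunit. With quantile normalization, edgeR or DESeq2 the large subunit had 11 higher and 16 to 17 lower, and the small subunit 9 to 10 higher and 4 lower. None of the 10 genes with the largest changes described next changed sign under any of these scalings.

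MRPS17 had 270.0, 238 and 259 units in PFF, and its log2 fold change to SCNT4c was 5.63 ± 0.13 (adjusted p = 6.61e-07). MRPS14 had 462, 458 and 423 units in PFF, with a log2 fold change of 4.80 ± 0.17 (adjusted p = 1.92e-06). The third was MRPL46, at 255, 267 and 238 units in PFF (3.81 ± 0.26, adjusted p = 2.42e-05). In each, the lowest SCNT4c library was several-fold above the highest fibroblast library.

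MRPS33, a mitochondria-specific small subunit protein, had 731, 636 and 734 units in PFF and 3009.8, 4208 and 3775 in SCNT4c (2.38 ± 0.16, adjusted p = 2.6e-05). MRPS23, another of that kind, had 701, 769 and 678 units in PFF and 3039.8, 4090.5 and 3709.6 in SCNT4c (2.32 ± 0.15, adjusted p = 1.99e-05). The groups did not overlap, and 4 of these 5 genes belong to the small subunit. MRPS18C, at 9.77 to 11.9 units in PFF, rose by 2.83 ± 0.30 (adjusted p = 0.00018).

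The 5 falls that follow were all in the large subunit. MRPL57, at 1018, 955 and 821 units in PFF, had a log2 fold change of -8.07 ± 0.58 (adjusted p = 3.33e-05), which was -6.17 with a pseudocount of 10. MRPL30 had 1101, 995 and 986 units in PFF (-5.18 ± 0.36, adjusted p = 2.93e-05), and MRPL23 fell by 4.54 on the log2 scale (SE 0.20, adjusted p = 4.67e-06). Each was lower in every SCNT4c library than in any PFF library.

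MRPL38, a protein of the central protuberance, had 1439, 1387 and 1436 units in PFF and 118, 114 and 52.3 in SCNT4c (-3.98 ± 0.34, adjusted p = 6.96e-05). MRPL1, of the L1 stalk, had 374, 339 and 410.0 units in PFF and 15.8, 37.6 and 26.6 in SCNT4c (-3.84 ± 0.35, adjusted p = 9.34e-05). The embryo groups never reached the PFF level of MRPL1, whose highest embryo value was 233 units in SCNT4c-TDG library 1. MRPS10 had 2474, 2556 and 2287 units in PFF, inside the SCNT4c range (-0.03 ± 0.20, adjusted p = 0.894).

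MRPS36, which is not a ribosomal subunit, had 678, 629 and 669 units in SCNT4c, 1785, 1991 and 2164 in SCNT4c-KG and 1958, 2571 and 2608 in SCNT4c-TDG. Its log2 fold changes were 1.58 ± 0.26 and 1.84 ± 0.26 (adjusted p = 0.000338 and 0.000103). In SCNT8c and PFF it had 805 to 1028 and 599.5 to 699 units.

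There are 5 further subunits of the mitochondrial ribosome whose symbols lie outside the family name. All 5 were higher in SCNT4c-KG, with a median log2 fold change of 3.52, where 17.6% of all features were higher. PTCD3, an RNA-binding protein of the small subunit, had 42.6, 108 and 91.3 units in SCNT4c and 701, 979.7 and 975 in SCNT4c-KG (3.52 ± 0.68, adjusted p = 0.00104). AURKAIP1 (3.74), CHCHD1 (3.09), GADD45GIP1 (3.52) and DAP3 (1.73), a GTP-binding small subunit protein, were the others. In SCNT4c-TDG, where 15.7% of all features were higher, AURKAIP1 (2.31), GADD45GIP1 (2.57) and PTCD3 (2.70) were called and CHCHD1 (1.05, adjusted p = 0.102) and DAP3 (1.08, adjusted p = 0.0774) were not. With the same total in each library or quantile normalization 4 of the 5 were higher there, and with DESeq2 all 5. Between the treatments, AURKAIP1 (-1.44) and CHCHD1 (-2.04) were lower with TDG, and 1 of the 5 was lower with the same total in each library, quantile normalization or edgeR. GADD45GIP1 was the 1 called at the 8-cell stage (2.93, adjusted p = 0.0189), where 0 of the 5 were called by limma in a fit of SCNT8c and SCNT4c alone and 3 with DESeq2. Against PFF 4 were lower in SCNT4c and CHCHD1 higher, and under the other scalings 3 were lower, with 0 higher after quantile normalization.

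A list of 54 other genes of mitochondrial translation, of which 30 were tested in the embryos, held calls in both directions. In SCNT4c-KG 9 were higher and 2 lower with a median log2 fold change of 0.53, where 17.6% of all features were higher and 19.6% lower. In SCNT4c-TDG 8 were higher and 6 lower with a median of 0.21, where 15.7% were higher and 17.6% lower. WARS2, the mitochondrial tryptophanyl-tRNA synthetase, rose in both, from 17.4, 50.7 and 25.7 units in SCNT4c to 853, 770.3 and 749.5 in SCNT4c-KG (4.75 ± 0.49, adjusted p = 4.19e-06) and to 433, 528 and 412 in SCNT4c-TDG (3.96 ± 0.49, adjusted p = 2.83e-05). MTERF3, which acts in mitochondrial transcription and ribosome assembly, fell in both, from 6606, 7903 and 8778 units to 702, 986 and 771 (-3.25 ± 0.26, adjusted p = 2.63e-07) and to 957, 924 and 834 (-3.09 ± 0.26, adjusted p = 7.85e-07). Like MRPS14 and MRPS17, it had a lower level in PFF, at 1066 to 1179 units, than in SCNT4c.

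Of translation factors, MTRF1L, a release factor, had 236, 279 and 208 units in SCNT4c and 2024, 2481 and 2002 in SCNT4c-KG (3.17, adjusted p = 4.39e-06), and was higher in SCNT4c-TDG too (2.89, adjusted p = 1.31e-05). MTIF2 (initiation) rose by as much in SCNT4c-KG (3.17, adjusted p = 0.0077), from a level of 0.87 to 10.3 units, and was also called in SCNT4c-TDG (2.49, adjusted p = 0.0305). YARS2, the mitochondrial tyrosyl-tRNA synthetase, fell in SCNT4c-KG (-2.82, adjusted p = 0.000479), and TACO1, the translational activator of COX1, in SCNT4c-TDG (-3.47, adjusted p = 0.00954) from a level of 14 to 30.8 units. Between the treatments, where 7.07% of all features were higher with TDG and 9.13% lower, 3 of the 30 were higher, led by GUF1, a translational GTPase (2.78, adjusted p = 0.00168), and YARS2 (2.29), and 5 lower, led by PARS2 (-2.30) and RBFA, a ribosome-binding factor (-1.93). The median log2 fold change was -0.28, and with the same total in each library it was 0.08, with 3 higher and 1 lower.

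At the 8-cell stage RBFA (1.93, adjusted p = 0.0389) and TUFM, the mitochondrial elongation factor Tu (1.34, adjusted p = 0.0479), were higher and IARS2 (-1.34, adjusted p = 0.041) lower. With all features above 0, or in a fit of SCNT8c and SCNT4c alone, none of this list was called in either direction by limma, and with DESeq2 10 were higher and 1 lower. Against PFF, where 38.5% of all features were lower and 39.7% higher, 23 of 33 were lower in SCNT4c (16 to 19 under the other scalings), led by MTG2, an assembly GTPase (-5.87), and MTIF2 (-5.24), and 2 were higher, MTERF3 (2.78) and TACO1 (1.78).

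Cytosolic ribosomal protein genes, the nearest family by function, had larger median rises than the mitochondrial family in both treated groups and a like median at the 8-cell stage. Of 74 tested, 67 were higher and 1 lower in SCNT4c-KG (median log2 fold change 4.82), 59 higher and 2 lower in SCNT4c-TDG (2.43), and 13 higher and 0 lower in SCNT8c (0.95). Between the treatments 0 were higher and 62 lower with TDG (median -1.88). The shares over all features are those given for each comparison above. The 13 became 6 with all features above 0, 42 with DESeq2 and 0 in a fit of SCNT8c and SCNT4c alone. Against PFF 67 were lower and 1 higher (median -3.42, and -3 to -2.56 under the other scalings, where the median of the mitochondrial family was -0.01 to 0.32). Their summed level was 116240 to 193750 units in SCNT4c and 1312500 to 1655400 in SCNT4c-KG. How far the mitochondrial family followed the cytosolic one was not tested.

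The summed levels of the marker lists also differed between these groups. The fibroblast markers summed to 4263.5 to 5459.6 units in SCNT4c, 2484.7 to 3611.7 in SCNT4c-KG and 1619.8 to 2148.3 in SCNT4c-TDG, with 2 higher and 4 lower of 8 tested in SCNT4c-KG and 0 higher and 3 lower in SCNT4c-TDG, and LUM was close to 0 in the embryos. Cumulus markers summed to 1415.6 to 1837.0 units in SCNT4c, 939.27 to 1198.0 in SCNT4c-KG and 515.71 to 645.58 in SCNT4c-TDG. INHBA, the inhibin beta A subunit, made up most of these sums and fell in both treated groups (-1.06 and -1.54, adjusted p = 0.00774 and 0.00068), whereas STAR, the cholesterol transporter of steroid synthesis, rose in SCNT4c-KG (2.98, adjusted p = 0.00251). Of 4 cumulus markers tested, 1 was higher and 1 lower in SCNT4c-KG, with a median of 0.22, and 0 higher and 1 lower in SCNT4c-TDG. Oocyte and early embryo markers summed to 31052 to 39999 units in SCNT4c, 35251 to 43496 in SCNT4c-KG, 36732 to 42216 in SCNT4c-TDG and 8033.7 to 23962 in SCNT8c. Within the sums PADI6, an oocyte lattice protein, fell (-1.14 in SCNT4c-KG and -4.35 in SCNT4c-TDG, adjusted p = 0.0159 and 4.93e-07) and DPPA3, a maternal factor, rose (2.28 and 2.85, adjusted p = 0.000671 and 0.000115). Of 7 tested, 3 were higher and 1 lower in SCNT4c-KG, 1 higher and 2 lower in SCNT4c-TDG and 0 higher and 2 lower in SCNT8c. Beside these marker counts, 17.6% of all features were higher and 19.6% lower in SCNT4c-KG, and 15.7% and 17.6% in SCNT4c-TDG. In SCNT8c the shares were 2.62% and 3.16%. The part of these differences, and of the lower depth of SCNT4c-KG, in the results was not tested.

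Not every gene could be measured. The 13 genes below the limit in the embryos were MRPL2, MRPL10, MRPL18, MRPL28, MRPL37, MRPL40, MRPL43, MRPL53, MRPS6, MRPS7, MRPS11, MRPS22 and MRPS25, and 11 of them, all but MRPL2 and MRPS25, had a mean under 10 in every group. MRPL10, MRPL18, MRPL40, MRPL43 and MRPS7 were listed at 0 in all 15 libraries, and MRPL28 held 1 read and MRPL53 4 reads in total. Translation in mitochondria needs these proteins in every growing cell, PFF included, so it can be said only that the genes are listed at 0.

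Exons of MRPL43 lie wholly inside those of a gene on the other strand (100% of bases, TWNK), as do 88.7% of those of MRPS7 (GGA3 and MIF4GD). Those of MRPL53 share 99.9% of their bases with those of CCDC142 on the same strand or TTC31 on the other, and MRPS22 shares 35.4% with COPB2 and MRPS25 27.8%. MRPL47, with 27.0% shared with ACTL6A, was measured all the same. Assembled transcripts at the locus held reads for others, with a mean of 1141 units in SCNT4c at MRPS22, a locus of 2 known genes. At MRPS7 they held 386 units, but that locus has 15 known genes and 7 assembled transcripts, so these reads cannot be assigned to MRPS7. Adding such transcripts to the gene at loci that hold 1 known gene left 43 higher and 2 lower in SCNT4c-KG, with 63 genes tested, and 31 higher and 4 lower in SCNT4c-TDG.

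Several genes of the family start next to a gene read in the opposite direction. The annotated starts are 8 bp apart for MRPL51 and NCAPD2, 23 bp for MRPL47 and NDUFB5, a subunit of respiratory complex I, 39 bp for MRPS11 and MRPL46, and 41 bp for MRPL27 and EME1. MRPL46 was among the highest genes of the family while MRPS11 had 40 reads in all libraries together.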

How the data were processed

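The data are 15 RNA-seq libraries, 3 for each of the 5 groups. PFF RNA was extracted with TRIzol and embryo RNA with a PicoPure kit, and SMARTer cDNA was made into libraries with a kit that does not mark strand. The submitters' processing notes name CASAVA 1.8.2, Trimmomatic 0.39, STAR 2.5.3a, StringTie 2.1.2, HTSeq, DESeq2 and the genome Sscrofa11.1. The deposited values are a normalized signal: the authors divided the read counts of each feature by a factor for each library. In each library 100% of values were whole multiples (within 0.1 reads) of 1 read, which gave back the reads; 241 identical repeated entries were removed. All 15 columns were used.

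Values were analyzed as log2(value + 1), a scale that understates changes of low genes, with limma 3.58.1 (R 4.3.3, intensity trend) on features with a mean of at least 10 in the libraries of a fit. The 12 embryo libraries were fitted together, SCNT4c and PFF in a fit of 6. A call needed a Benjamini-Hochberg adjusted p under 0.05 over all features together with a fold change above 2. An exact permutation test of 1 gene, 3 libraries against 3, cannot go below p = 0.1. The members, fixed by symbol alone, and the lists were chosen with earlier results of these data known. Genes were named by the rule given in the report, with the 5 genes of highest mean, the bS18 family, genes with a mean under 10 in every group, the 5 other subunits and the 2 largest rises and falls of the other translation genes. Alternatives were other pseudocounts, filters and scalings, edgeR 4.0.16 and DESeq2 1.42.0 on recovered reads, other sets of libraries, assembled transcripts added to their gene, and a replicate block. Titles and descriptions number the SCNT4c libraries differently, so these are called a, b and c. Same-numbered libraries of the other embryo groups deviated together with correlations of -0.061 to 0.195, so numbers were not used as pairs. Gene positions and promoters were read from the RefSeq genome and annotation of Sscrofa11.1, with 63 of 75 genes matched by Entrez ID and 12 by symbol and locus. One further promoter sequence is not reported here.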

Additional observations from a re-analysis of the deposited data

Results flagged for a closer look

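Assembled transcripts, which the comparisons of named genes do not use, held signal above the SCNT4c controls at loci of 2 genes of the family that were themselves hardly counted. An assembled transcript at the locus of MRPL40 had 125.78, 247.46 and 149.62 units in SCNT4c-KG (mean 174.29 ± 64.5, SD, n = 3) and 2.37, 0.87 and 3.32 in SCNT4c (mean 2.19 ± 1.23). This locus holds 4 known genes, and MRPL40 itself was listed at 0 in every library.

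An assembled transcript at the locus of MRPS11 had 181.32, 267.76 and 192.37 units in SCNT4c-KG (mean 213.82 ± 47.0) and 257.66, 149.63 and 122.56 in SCNT8c (mean 176.62 ± 71.5), against 37.9, 21.8 and 60.6 in SCNT4c (mean 40.1 ± 19.5). Both groups lie above SCNT4c with no overlap, and SCNT4c-TDG, with a mean of 104.9, overlapped SCNT4c. The locus holds 2 known genes, MRPS11 and MRPL46, whose starts are 39 bp apart, and which of them the transcript belongs to was not tested.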

How the results depend on the processing

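Of 993 refits of single named genes under an alternative, 885 kept their side of the threshold, 93 lost the call and 15 gained one. Where the gene was called in the main fit or the refit, 0 changed sign. Signs of genes called in neither were not compared. Of 184 refits of counts and sums, 144 stayed within 1.5 times the reported count or within 1 SD of the reported sum. Genes lower in SCNT4c-KG numbered 1 with all features above 0, quantile normalization, edgeR or DESeq2, and 0 to 1 with 1 library left out. Genes lower in SCNT4c-TDG numbered 7 with no fold limit. Genes higher in SCNT8c numbered 5 with all features above 0, 32 with DESeq2, 0 in a fit of SCNT8c and SCNT4c alone, and 0 to 35 with 1 library left out, and genes lower numbered 1 with no fold limit and 0 to 1 with 1 library left out. Genes higher in SCNT4c than in PFF numbered 18 with the same total in each library and 21 with quantile normalization, 21 with edgeR and 21 with DESeq2. Genes higher in SCNT4c-TDG than in SCNT4c-KG numbered 1 with all features above 0, 5 with DESeq2, 5 in a fit of these groups alone and 0 to 2 with 1 library left out, and genes lower numbered 9 with the same total and 10 to 15 with 1 library left out. The other counts with 1 library left out ranged from 40 to 43 higher in SCNT4c-KG, from 28 to 30 higher and 3 to 5 lower in SCNT4c-TDG, and from 9 to 12 higher and 26 to 29 lower against PFF. The summed level in PFF was 36932 with the same total and 31066 after quantile normalization, and that of SCNT4c-TDG 140340 and 130290. Fewer features or libraries enter some of these fits; otherwise the cause was not tested. A replicate block could be fitted without SCNT4c only, and with it 3 genes were higher and 18 lower in SCNT4c-TDG than in SCNT4c-KG, against 3 and 19 without the block in the same 9 libraries, a setting chosen after seeing the data. Depth limits the genes at a few reads, where fold changes follow the pseudocount.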

Other observations

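Genes of the mitochondrial DNA, whose messages these ribosomes translate, were examined after their values had been seen. CYTB, cytochrome b of respiratory complex III, had 64275, 72278 and 43287 units in SCNT4c, 245364, 177012 and 191017 in SCNT4c-KG and 710784, 791242 and 746487 in SCNT4c-TDG. Its log2 fold change was 1.79 ± 0.23 in SCNT4c-KG (limma adjusted p = 3.65e-05) and 3.68 ± 0.23 in SCNT4c-TDG (adjusted p = 7.76e-08), and between the treatments it was higher with TDG by 1.89 ± 0.23 (adjusted p = 0.000129). ND5, of complex I, had 145466, 131106 and 99538 units in SCNT4c and 403415, 482025 and 389398 in SCNT4c-TDG (1.77 ± 0.24, adjusted p = 5.64e-05), and was not called in SCNT4c-KG (0.18 ± 0.24, adjusted p = 0.578). ND6 and ND4, of complex I too, rose in both groups, ND6 by 2.81 ± 0.45 and 4.08 ± 0.45 (adjusted p = 0.00025 and 1.06e-05) and ND4 by 2.00 ± 0.35 and 2.84 ± 0.35 (adjusted p = 0.000508 and 2.94e-05). Between the treatments ND5 was higher with TDG (1.59 ± 0.24, adjusted p = 0.000475), and ND6 (1.27, adjusted p = 0.0672) and ND4 (0.83, adjusted p = 0.123) were not called. The median of the mitochondrial ribosomal protein genes was -0.80 in that comparison. The other 9 protein genes of the mitochondrial DNA are listed at 0 in all libraries, so this rests on 4 genes.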
